A study of Mus musculus with 6 samples.

Results

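Histone lysine methyltransferases, lysine demethylases and acetyltransferases outside the KMT2/SETD1 group were examined in cells labelled as tumour cells of a mouse melanoma model, with and without floxed Kmt2d alleles. The genes were 39 named enzymes and core subunits, found by their symbols, and all 39 were present among the 24391 genes of the count tables. They comprise 19 methyltransferases or methyltransferase subunits, 16 demethylases and 4 acetyltransferases. KMT2/SETD1 genes and Kdm6a were left out of the set, while Ash2l, a subunit of KMT2 complexes, was kept.

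The libraries labelled KMT2D KO (3) came from tumour cells of iBIP;KMT2DL/L mice, and the libraries labelled KMT2D WT (3) from tumour cells of iBIP;KMT2D+/+ mice. Mice of both genotypes carried the iBIP alleles: Tyr-CreERT2, a tamoxifen-activated Cre driven by the tyrosinase promoter of pigment cells, Rosa26-rtta, TetO-BRAFV600E, INK/ARFL/L and 1 further floxed allele, on a mixed FVB and B6 background. All mice received doxycycline, which turns on the BRAF transgene, and 4-OHT at 1 uM on the ears, which activates Cre, so the floxed iBIP alleles were targeted in the controls as well. In the file headers the 3 libraries of each group share 1 name stem and differ in the last number. The labels do not say whether they came from separate cultures, tumours or mice, their age and sex are not given, and their extraction protocol names cerebellar tissue where the other labels name tumour cells. All p-values therefore rest on the spread among these libraries, which could be technical. A difference between the groups cannot be told apart from a difference between the tumours of origin.

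Lysines in the tails of histones carry methyl and acetyl groups that mark active and silent chromatin. Methyltransferases add the methyl groups, H3K4 and H3K36 methylation being typical of active genes and H3K9 and H3K27 methylation of silent ones, and demethylases of the LSD and Jumonji families remove them with flavin or with iron, oxygen and 2-oxoglutarate. Kmt2d places H3K4 monomethylation at enhancers, where the acetyltransferases Crebbp and Ep300 place H3K27 acetylation, and the H3K27 demethylase Kdm6a is part of its complex.

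Total counts were 55594979 to 79718782 in KMT2D KO and 43168605 to 59360068 in KMT2D WT. Kmt2d itself gave 73, 69.3 and 79.8 CPM in KMT2D KO replicates 1, 2 and 3 and 79.7, 87.6 and 101 CPM in KMT2D WT replicates 1, 2 and 3 (CPM, counts relative to the scaled library size), groups that overlapped (log2 fold change -0.27, edgeR adjusted p = 0.0075). Counts were summed over the whole gene, so loss of the floxed exons was not checked by this value. The defining melanocyte markers were near 0, which goes against the labelled cell type: 6 of 8 averaged under 1 CPM in each group. Tyr, Tyrp1, Dct and Kit had group means at or below 0.0765 CPM, with single libraries up to 0.163 CPM (Tyrp1, KMT2D KO replicate 2). Mitf averaged 53.2 CPM in KMT2D KO and 15.4 CPM in KMT2D WT. The 8 fibroblast markers summed to 21245 to 22243 CPM in KMT2D KO and 5547 to 5745 CPM in KMT2D WT, with 5 called higher, led by Col1a2, Col3a1, Col1a1 and Pdgfra, and 3 called lower. The 3 lower were Dpt (0.839 CPM in KMT2D KO and 44.8 CPM in KMT2D WT, log2 fold change -5.69), Thy1 (-1.60) and Lum (-1.29), so the sum was carried by the collagen genes. The 6 immune markers summed to 3.16 to 3.76 CPM in KMT2D KO and 9.87 to 15.6 CPM in KMT2D WT, and the 6 Schwann cell markers to 213 to 221 CPM in KMT2D KO and 102 to 110 CPM in KMT2D WT. The 5 keratinocyte markers summed to 14.6 to 16.3 CPM in KMT2D KO and 9.83 to 13.8 CPM in KMT2D WT, with Dsp lower and Trp63 higher in KMT2D KO. The 4 endothelial markers stayed at or below 1.15 CPM in sum, and the 6 cerebellum markers at or below 0.380 CPM, in every library. The KMT2D KO libraries also lacked Y-linked transcripts that the KMT2D WT libraries held, as detailed with Kdm5c. The part of other cell types and of this difference in the results below was not tested, and in bulk samples fewer cells of a type and less RNA per cell cannot be told apart.

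Promoters of 5 called members are shown first, because they give the regulatory sequence beside the values that follow. RefSeq promoter entries (GRCm38.p6) matched 30 of the 39 members. Printed are the largest rise with an entry (Kdm3a, the most upstream of its 3 listed starts) and, among called members with 1 listed start, the 2 largest rises (Kdm5b, Kdm1a) and the 2 largest falls (Suv39h2, Phf2). Each sequence holds the 250 bases before the start site, 5′ to 3′ on the strand of the gene, at chr6:71632918-71633167 (minus), chr1:134559928-134560177 (plus), chr4:136602724-136602973 (minus), chr2:3474987-3475236 (minus) and chr13:48870886-48871135 (minus) in that build. Capitals mark ACGTG or GCGTG on either strand, the core letters of the element bound by hypoxia-inducible factors.
Kdm3a: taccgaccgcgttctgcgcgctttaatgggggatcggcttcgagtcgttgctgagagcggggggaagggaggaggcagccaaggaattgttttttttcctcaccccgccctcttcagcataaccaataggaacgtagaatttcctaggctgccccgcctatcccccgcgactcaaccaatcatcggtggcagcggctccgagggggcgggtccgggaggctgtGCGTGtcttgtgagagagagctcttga
Kdm5b: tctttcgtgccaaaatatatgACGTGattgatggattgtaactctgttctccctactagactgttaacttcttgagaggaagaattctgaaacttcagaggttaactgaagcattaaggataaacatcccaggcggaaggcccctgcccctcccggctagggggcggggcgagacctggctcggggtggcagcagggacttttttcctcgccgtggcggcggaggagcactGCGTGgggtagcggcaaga
Kdm1a: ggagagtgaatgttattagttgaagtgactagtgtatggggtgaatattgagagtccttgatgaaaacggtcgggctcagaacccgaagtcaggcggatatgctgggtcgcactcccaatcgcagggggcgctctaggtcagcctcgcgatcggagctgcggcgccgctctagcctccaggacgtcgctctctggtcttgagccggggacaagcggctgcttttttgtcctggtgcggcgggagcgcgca
Suv39h2: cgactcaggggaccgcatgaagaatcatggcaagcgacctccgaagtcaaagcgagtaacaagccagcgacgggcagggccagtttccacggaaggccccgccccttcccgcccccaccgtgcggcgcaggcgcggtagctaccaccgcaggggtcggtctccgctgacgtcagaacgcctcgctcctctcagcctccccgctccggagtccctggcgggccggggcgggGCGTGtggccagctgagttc
Phf2: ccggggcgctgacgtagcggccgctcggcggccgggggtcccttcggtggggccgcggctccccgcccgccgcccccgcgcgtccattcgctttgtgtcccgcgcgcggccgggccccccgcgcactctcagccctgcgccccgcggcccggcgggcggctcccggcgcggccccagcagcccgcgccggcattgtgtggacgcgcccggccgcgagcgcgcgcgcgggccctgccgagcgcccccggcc
The window of Kdm3a held 1 such match close to the start site, that of Kdm5b held 2 and that of Suv39h2 held 1, while those of Kdm1a and Phf2 held none. Matches stood in 20 of 30 member windows (66.7%), in 55.7% of 10884 windows of tested genes and in 38.6% of 27025 windows of all genes of the table. Member windows were also richer in CpG, with a median of 20.5 CpG against 15 in windows of tested genes. The Phf2 window held 50 CpG. Windows that were counted but not printed used the most upstream start of each gene.

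All 39 genes passed the low-count filter, and all were expressed in both groups, from 3.22 to 240.4 CPM in KMT2D KO and from 5.0 to 235 CPM in KMT2D WT. Called genes are those with a Benjamini-Hochberg adjusted p below 0.05 over all 14579 genes tested with the quasi-likelihood test of edgeR. Of the 39, 22 were higher in KMT2D KO, 5 were lower and 12 were not called. The 27 calls make 69.2% of the set, and 71% of all tested genes were called, so the share called was close to the background. By direction, 56.4% of members were higher, against 35.4% of all tested genes, and 12.8% were lower, against 35.5% of all tested genes. The median log2 fold change (KMT2D KO minus KMT2D WT) was 0.24 for the members and 0.0040 for all tested genes. With library size alone as the scaling, 16 members were higher and 9 lower, and the median of all tested genes shifted by -0.11.

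The differences were moderate in size. An absolute log2 fold change above 1 was reached by 2 called members, Kdm4b and Kdm3a (5.13%), and by 26.8% of all tested genes. The median absolute log2 fold change was 0.34 in the members and 0.53 over all tested genes. Libraries of the groups did not overlap for 25 members (64.1%), compared with 74.3% of tested genes. The median biological coefficient of variation was 5.71% for the members and 7.80% for all tested genes.

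**Figure D1:**
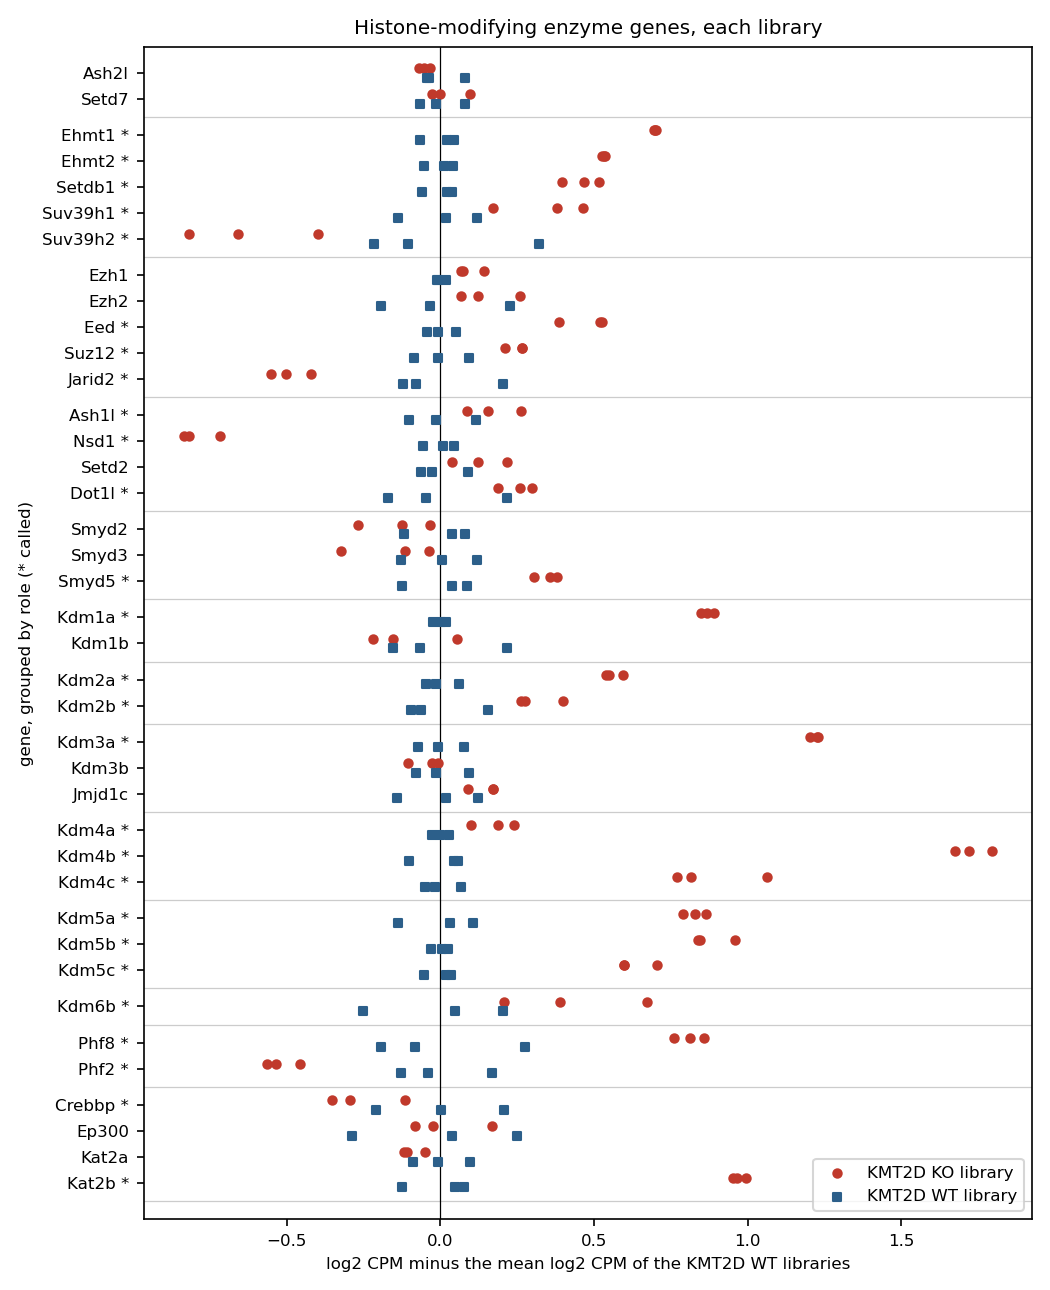
Log2 CPM of each member gene in each library minus the mean log2 CPM of the KMT2D WT libraries, with KMT2D KO libraries as red circles above KMT2D WT libraries as blue squares, genes grouped by role and called genes marked with a star. Kdm4b and Kdm3a lie farthest to the right, and Nsd1 and Suv39h2 farthest to the left.

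Per length, measured in RPKM (CPM per kilobase of exon), the most abundant member in each group was Ehmt2, the G9a methyltransferase of H3K9, at 55.4 ± 0.187 RPKM in KMT2D KO and 38.3 ± 1.3 RPKM in KMT2D WT (SD, n = 3). The next in KMT2D KO were Kdm2a at 33.1 ± 0.652, Smyd2 at 32.9 ± 2.66 and Kdm5b at 32 ± 1.52 RPKM, levels that lay within their spread of one another. In KMT2D WT the next were Smyd2 at 36.2 ± 2.57, within its spread of Ehmt2, Kdm2a at 22.4 ± 0.871 and Kdm4a at 19.6 ± 0.375 RPKM. The least abundant was Suv39h2, at 0.753 ± 0.112 RPKM in KMT2D KO and 1.17 ± 0.24 RPKM in KMT2D WT, and Smyd3 stood next to it in each group. Kdm4b held rank 9 in KMT2D KO and rank 30 in KMT2D WT, whereas Nsd1 held rank 24 in KMT2D KO and rank 5 in KMT2D WT.

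Demethylase genes were mostly higher in KMT2D KO: 12 of 16 were called higher, 1 lower and 3 not called, with a median log2 fold change of 0.60. All members of the set from the Kdm2, Kdm4 and Kdm5 families, and Kdm6b, were called higher, and the fall was that of Phf2. Those 12 make 75.0% of the demethylases, where 35.4% of all tested genes were higher. The 1 fall makes 6.25%, where 35.5% of all tested genes were lower.

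The KDM4 enzymes remove trimethyl groups from H3K9 and H3K36. Kdm4b (chr17:56465473-56542296, plus strand; positions of genes are in mm9, from 1) had 87.6, 84.9 and 92.3 CPM in KMT2D KO replicates 1, 2 and 3 and 27.7, 27.4 and 24.8 CPM in KMT2D WT replicates 1, 2 and 3. The groups lay far apart, and the log2 fold change was 1.73 (SE 0.066, edgeR adjusted p = 5.4e-12). Kdm4c had 31, 30.1 and 36.9 CPM in the KMT2D KO libraries and 18.5, 17.4 and 17 CPM in the KMT2D WT libraries, replicates in the same order here and below. Its groups were separate too (log2 fold change 0.89, SE 0.089, edgeR adjusted p = 4.2e-07). Kdm4a had 110.5, 104 and 115 CPM in KMT2D KO and 98.8, 96.9 and 95.1 CPM in KMT2D WT, a small rise of 0.18 on the log2 scale (edgeR adjusted p = 0.011). That call was lost with library size alone as the scaling (log2 fold change 0.065, edgeR adjusted p = 0.29) and relative to the median of its chromosome (0.043, edgeR adjusted p = 0.51). Kdm4a was 19.6 RPKM in KMT2D WT, the highest of the family, and was 22.1 RPKM in KMT2D KO beside 19.1 RPKM of Kdm4b.

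Among the H3K9 demethylases of the KDM3 group, only Kdm3a, which is known as a target of hypoxia-inducible factors, was called. Relative to chromosome medians all 3 were called higher. Their log2 fold changes were then 0.80 for Kdm3a, 0.46 for Kdm3b (edgeR adjusted p = 9.3e-06) and 0.25 for Jmjd1c (edgeR adjusted p = 0.0039). Kdm3a (chr6:71538964-71582911, minus strand) had 111, 109 and 111 CPM in KMT2D KO and 50.1, 47.3 and 45.2 CPM in KMT2D WT. Every KMT2D KO library was above every KMT2D WT library by a wide gap, and the log2 fold change was 1.22 (SE 0.058, edgeR adjusted p = 7.5e-11). Kdm3b had 78, 73.9 and 79 CPM in KMT2D KO and 78.7, 75.2 and 84.8 CPM in KMT2D WT, overlapping groups that were not called (log2 fold change -0.047, 95% interval -0.18 to 0.083), though called lower with library size alone (-0.16, edgeR adjusted p = 0.027). Jmjd1c, a related Jumonji protein, had 123, 116 and 123 CPM in KMT2D KO and 111, 98.9 and 119 CPM in KMT2D WT and was not called (log2 fold change 0.14, 95% interval 0.00066 to 0.28, edgeR adjusted p = 0.067). Without KMT2D WT replicate 3, the highest of its group, Jmjd1c was called (log2 fold change 0.21, edgeR adjusted p = 0.0037).

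All 3 KDM5 genes of the set, which encode enzymes that remove the trimethyl mark from H3K4, were higher, where 35.4% of all tested genes were. Kdm5b (chr1:136456755-136529455, plus strand) had 196, 197 and 213 CPM in KMT2D KO and 107, 109.9 and 111 CPM in KMT2D WT (log2 fold change 0.88, SE 0.054, edgeR adjusted p = 1.4e-09). Kdm5a had 134, 137 and 141 CPM in KMT2D KO and 83.2, 70.4 and 79.1 CPM in KMT2D WT (log2 fold change 0.82, SE 0.064, edgeR adjusted p = 2.4e-08). Kdm5c, on the X chromosome, had 122, 122 and 131 CPM in KMT2D KO and 77.7, 81.7 and 82.6 CPM in KMT2D WT (log2 fold change 0.63, SE 0.056, edgeR adjusted p = 9.6e-08). For each of these genes the groups were separate, and the gap exceeded the range of the libraries within either group.

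The Y-linked copy of Kdm5c, Kdm5d, moved the other way. Kdm5d had 0.104, 0.147 and 0.132 CPM in KMT2D KO and 25.3, 22 and 25.7 CPM in KMT2D WT, which is 8, 9 and 7 counts in KMT2D KO. The same near absence held for the Y-linked genes Uty (0.177 CPM in KMT2D KO and 34.8 CPM in KMT2D WT), Ddx3y (0.613 CPM in KMT2D KO and 114 CPM in KMT2D WT) and Eif2s3y (0.322 CPM in KMT2D KO and 45.7 CPM in KMT2D WT). Xist, the RNA of the inactive X chromosome, did not exceed 0.201 CPM in any library of either group. The KMT2D KO libraries thus held next to no transcripts of these Y-linked genes. Values of Ddx3y, Eif2s3y and Xist were looked up after Kdm5d had been seen, while Uty was on a list of demethylase genes.

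Per length, the sum of Kdm5c and Kdm5d was 11.1, 11.1 and 12 RPKM in KMT2D KO and 11.7, 11.4 and 12.2 RPKM in KMT2D WT, a ratio of 0.968 (exact permutation p = 0.3, two-sided, n = 3 each, smallest possible 0.1). The groups overlapped in this sum, while Kdm5c and Kdm5d each had groups that did not overlap. The sum of all 4 KDM5 genes was 54.4, 54.9 and 58.6 RPKM in KMT2D KO and 36.3, 35.3 and 37.1 RPKM in KMT2D WT, a ratio of 1.54 (exact permutation p = 0.1). For the pair of H3K27 demethylase homologues on the X and Y chromosomes the sum behaved differently, with Kdm6a plus Uty at 9.13, 8.3 and 8.52 RPKM in KMT2D KO and 11.2, 11.7 and 13.3 RPKM in KMT2D WT (ratio 0.718, exact permutation p = 0.1). Kdm6a alone was higher in KMT2D KO, at a mean of 8.62 RPKM beside 5.4 RPKM in KMT2D WT. Its groups did not overlap (log2 fold change 0.68, edgeR adjusted p = 1.2e-05). Uty averaged 0.0339 RPKM in KMT2D KO and 6.66 RPKM in KMT2D WT, so the lower sum came from Uty. These sums were chosen after their values were seen. Fragments that map equally to the X and Y copies would be left out by the counting defaults, which affects each of these genes.

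**Figure D2:**
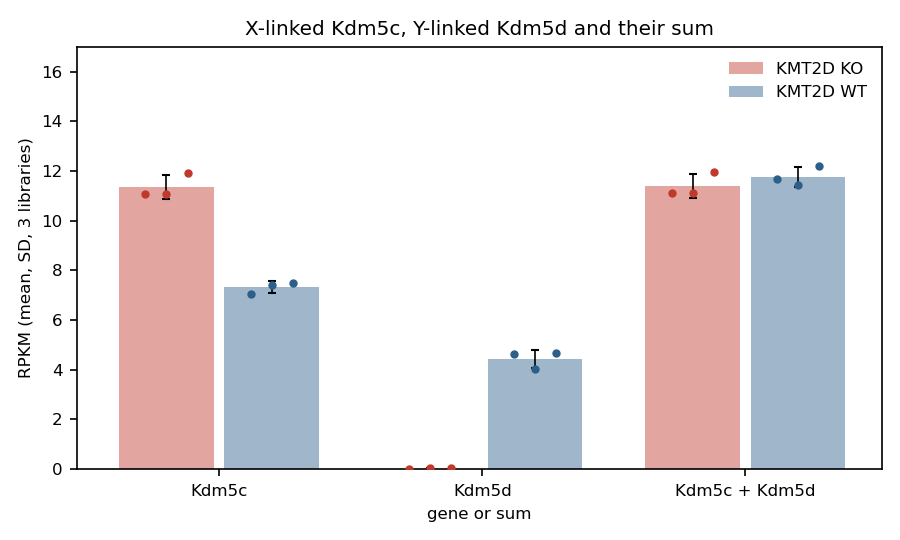
RPKM of X-linked Kdm5c, Y-linked Kdm5d and their sum, with bars for the mean of 3 libraries, whiskers for the SD, and points for single libraries, KMT2D KO in red and KMT2D WT in blue. Kdm5c was higher and Kdm5d close to 0 in KMT2D KO, and the sums of the groups overlapped.

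The LSD family removes H3K4 methyl groups with flavin. Kdm1a (LSD1) had 77.9, 79.1 and 76.9 CPM in KMT2D KO and 42, 42.8 and 43.3 CPM in KMT2D WT, with little spread in either group (log2 fold change 0.87, SE 0.056, edgeR adjusted p = 2.4e-09). Kdm1b had 15.6, 14.9 and 18 CPM in KMT2D KO and 15.6, 16.6 and 20.1 CPM in KMT2D WT and was not called (log2 fold change -0.11, 95% interval -0.34 to 0.13). Of its exonic bases, 10.3% are shared with Dek on the other strand, and fragments that overlap both genes were left out.

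The KDM2 enzymes act on H3K36, and Kdm2b also brings PRC1, the other Polycomb complex, to CpG islands. Kdm2a had 237, 238 and 246 CPM in KMT2D KO and 161, 158 and 170 CPM in KMT2D WT, groups that did not overlap (log2 fold change 0.56, SE 0.052, edgeR adjusted p = 1.6e-07). Kdm2b had 28.2, 27.9 and 30.7 CPM in KMT2D KO and 22.3, 25.9 and 21.8 CPM in KMT2D WT, a smaller rise (log2 fold change 0.31, edgeR adjusted p = 0.0047). The rise of Kdm2b missed the threshold with library size alone (0.20, edgeR adjusted p = 0.052). Kdm6b, the H3K27 demethylase JMJD3, had 23.8, 20.9 and 28.9 CPM in KMT2D KO and 15.2, 20.9 and 18.7 CPM in KMT2D WT (log2 fold change 0.42, edgeR adjusted p = 0.0076). KMT2D KO replicate 2 lay just above the highest KMT2D WT library, and without KMT2D KO replicate 3 Kdm6b was not called (0.30, edgeR adjusted p = 0.06).

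The PHF demethylases Phf8 and Phf2, which act on H3K9 dimethylation, went in opposite directions. Phf8, on the X chromosome, had 53.4, 51.5 and 55.1 CPM in KMT2D KO and 26.6, 28.7 and 36.8 CPM in KMT2D WT (log2 fold change 0.80, SE 0.097, edgeR adjusted p = 3.3e-06). Phf2 (chr13:48897119-48966254, minus strand) had 48.2, 49.1 and 51.9 CPM in KMT2D KO and 65.2, 69.2 and 80 CPM in KMT2D WT (log2 fold change -0.52, SE 0.074, edgeR adjusted p = 1.6e-05). Relative to the median of chromosome 13 Phf2 was not called (0.017, edgeR adjusted p = 0.86). In each case the groups were separate, and KMT2D WT replicate 3 was the highest of its group.

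**Figure D3:**
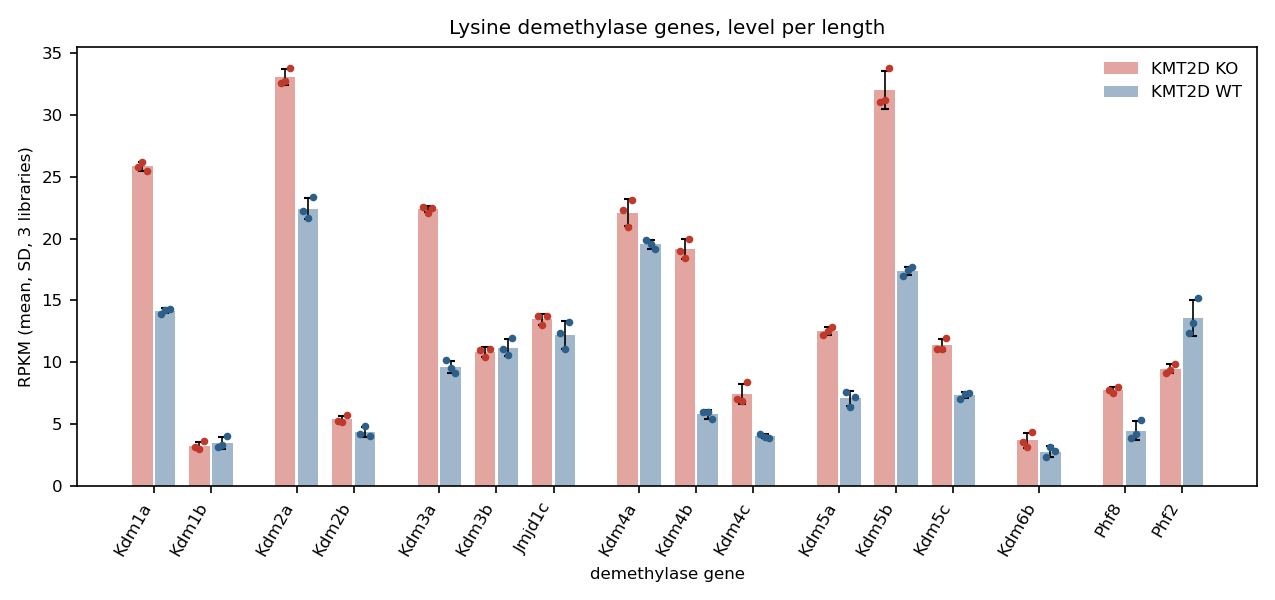
RPKM of the 16 demethylase genes by family, with bars for the mean of 3 libraries, whiskers for the SD, and points for single libraries, KMT2D KO in red to the left of KMT2D WT in blue. Kdm4b, Kdm3a, Kdm5b and Kdm1a show wide gaps, and Phf2 is the member with the higher bar in KMT2D WT among those called.

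Methyltransferase genes and their subunits were more evenly divided. Of 19, 9 were called higher (47.4%, beside 35.4% of all tested genes), 3 lower (15.8%, beside 35.5%) and 7 not called, with a median log2 fold change of 0.15, and 0 passed an absolute log2 fold change of 1. With library size alone, 5 were called higher.

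All 5 H3K9 methyltransferase genes were called, 4 higher and 1 lower, where 71% of all tested genes were called. Ehmt1 and Ehmt2 encode GLP and G9a, partners that place H3K9 dimethylation. Ehmt1 (chr2:24646289-24775129, minus strand) had 78.3, 78.1 and 78.4 CPM in KMT2D KO and 48.9, 46.1 and 49.8 CPM in KMT2D WT (log2 fold change 0.70, SE 0.057, edgeR adjusted p = 4e-08). Ehmt2 had 226, 226 and 225 CPM in KMT2D KO and 157, 161 and 150.3 CPM in KMT2D WT (log2 fold change 0.53, SE 0.05, edgeR adjusted p = 2.2e-07). The KMT2D KO libraries of both genes were nearly level with one another and all above KMT2D WT. Setdb1, which trimethylates H3K9 at retroelements, had 60.1, 55.4 and 58.2 CPM in KMT2D KO and 43.2, 40.4 and 42.7 CPM in KMT2D WT (log2 fold change 0.46, edgeR adjusted p = 9.7e-06). Suv39h1 and Suv39h2, the enzymes of pericentric heterochromatin, differed in opposite directions. Suv39h1 had 19, 16.4 and 20.1 CPM in KMT2D KO and 15.8, 14.8 and 13.3 CPM in KMT2D WT (log2 fold change 0.34, edgeR adjusted p = 0.008), and its call was lost with library size alone (edgeR adjusted p = 0.057) and relative to its chromosome median (0.15, edgeR adjusted p = 0.2). Suv39h2 (chr2:3373087-3392258, minus strand), the lowest of all 39, had 3.13, 2.8 and 3.74 CPM in KMT2D KO and 4.58, 4.25 and 6.17 CPM in KMT2D WT (log2 fold change -0.63, SE 0.18, edgeR adjusted p = 0.0062). Its groups were separate by a narrow margin, and 4.9% of its exonic bases are shared with Dclre1c on the other strand. The 5 genes summed to 90.1, 88.4 and 90 RPKM in KMT2D KO and 63.3, 62.6 and 61.3 RPKM in KMT2D WT, a ratio of 1.43 (exact permutation p = 0.1) in which Ehmt2 had the largest share.

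Polycomb repressive complex 2 (PRC2) places H3K27 methylation through Ezh2 or Ezh1, with Eed and Suz12 as core subunits and Jarid2 as an accessory subunit. Neither catalytic gene was called in the comparison of groups. Ezh2 had 22.5, 19.7 and 20.5 CPM in KMT2D KO and 16.5, 18.4 and 22 CPM in KMT2D WT (log2 fold change 0.15, 95% interval -0.078 to 0.37, edgeR adjusted p = 0.23). KMT2D WT replicate 3 was the highest of its group, and without it Ezh2 was called higher (0.27, edgeR adjusted p = 0.012). Ezh1 had 36.9, 38.7 and 36.8 CPM in KMT2D KO and 35.6, 34.9 and 34.9 CPM in KMT2D WT, groups that did not overlap but differed little (log2 fold change 0.094, 95% interval -0.043 to 0.23). The core subunits were higher, Eed with 40.8, 40.9 and 37.2 CPM in KMT2D KO and 29.5, 28.3 and 27.6 CPM in KMT2D WT (log2 fold change 0.48, SE 0.07, edgeR adjusted p = 2.2e-05). Suz12 had 52.4, 50.4 and 52.4 CPM in KMT2D KO and 46.6, 43.4 and 41.1 CPM in KMT2D WT (log2 fold change 0.24, edgeR adjusted p = 0.0035), a call lost with library size alone (edgeR adjusted p = 0.077). Jarid2 was lower, with 26.8, 25.9 and 28.4 CPM in KMT2D KO and 34.9, 35.9 and 43.7 CPM in KMT2D WT (log2 fold change -0.50, SE 0.088, edgeR adjusted p = 0.00013). Relative to the median of chromosome 13 it was not called (0.043, edgeR adjusted p = 0.69).

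Of the 4 H3K36 and H3K79 methyltransferases, Ash1l and Dot1l were called higher, Nsd1 lower and Setd2 not called. That is 50% higher and 25% lower, beside 35.4% and 35.5% of all tested genes. Nsd1 (chr13:55311143-55419686, plus strand), which dimethylates H3K36, had 133, 132 and 143 CPM in KMT2D KO and 236, 226 and 242 CPM in KMT2D WT. Its groups were far apart, and the log2 fold change was -0.79 (SE 0.055, edgeR adjusted p = 6e-09), the lowest of the 39. Ash1l, a further H3K36 enzyme, had 91.8, 87.6 and 98.9 CPM in KMT2D KO and 76.8, 81.7 and 89.4 CPM in KMT2D WT, overlapping groups at the edge of the threshold (log2 fold change 0.17, edgeR adjusted p = 0.037). It was not called without KMT2D WT replicate 1 or 2 or without KMT2D KO replicate 1 or 3 (edgeR adjusted p = 0.069 to 0.15), nor under the RLE, upper quartile or library size scalings. Without KMT2D WT replicate 1 its log2 fold change was 0.12. Setd2, the H3K36 trimethylase, had 117, 110.4 and 125 CPM in KMT2D KO and 106, 103 and 115 CPM in KMT2D WT and was not called (log2 fold change 0.13, 95% interval -0.0075 to 0.26). It was called without KMT2D WT replicate 3 (edgeR adjusted p = 0.012) or KMT2D KO replicate 2 (edgeR adjusted p = 0.04), and relative to its chromosome median it was higher by 0.43 (edgeR adjusted p = 2.4e-05). Dot1l, the H3K79 methyltransferase, had 22.9, 24.7 and 24 CPM in KMT2D KO and 17.9, 19.5 and 23.4 CPM in KMT2D WT (log2 fold change 0.24, edgeR adjusted p = 0.037). Its call was lost without KMT2D WT replicate 1 or 2 or KMT2D KO replicate 2 or 3 (edgeR adjusted p = 0.08 to 0.14) and with library size alone (edgeR adjusted p = 0.24).

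Of the SMYD family, named after its SET and MYND domains, Smyd5 was higher and the others were not called. That is 33.3% higher, beside 35.4% of all tested genes. Smyd5 had 43, 42.3 and 40.8 CPM in KMT2D KO and 30.3, 34 and 35.1 CPM in KMT2D WT (log2 fold change 0.34, edgeR adjusted p = 0.00054), a call that ended relative to the median of chromosome 6 (-0.075, edgeR adjusted p = 0.37). Smyd2, which methylates p53 as well as histones, had 53.2, 56.7 and 48.2 CPM in KMT2D KO and 61.4, 59.6 and 53.5 CPM in KMT2D WT (log2 fold change -0.14, 95% interval -0.30 to 0.015). It was called lower without KMT2D WT replicate 3 (-0.19, edgeR adjusted p = 0.015) and with library size alone (-0.25, edgeR adjusted p = 0.0075). Smyd3 had 5.58, 5.27 and 4.57 CPM in KMT2D KO and 5.23, 6.22 and 5.75 CPM in KMT2D WT (log2 fold change -0.15, 95% interval -0.45 to 0.14), the least exact of the values not called.

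Neither H3K4 gene of the set was called, where 71% of all tested genes were. Ash2l, the subunit shared by KMT2 and SETD1 complexes, had 51.2, 50.5 and 49.9 CPM in KMT2D KO and 55.3, 51.1 and 50.8 CPM in KMT2D WT (log2 fold change -0.053, 95% interval -0.18 to 0.077). This depended on the scaling, since Ash2l was called lower with library size alone (-0.16, edgeR adjusted p = 0.025) and relative to its chromosome median (-0.26, edgeR adjusted p = 0.0014). Setd7, an H3K4 monomethyltransferase with many non-histone substrates, had 114, 112 and 122 CPM in KMT2D KO and 109, 113 and 120.4 CPM in KMT2D WT (log2 fold change 0.023, 95% interval -0.10 to 0.15).

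Of the 4 acetyltransferase genes, 1 was higher, 1 lower and 2 not called. That is 25% higher and 25% lower, beside 35.4% and 35.5% of all tested genes. Kat2b (PCAF; chr17:53706296-53812046, plus strand), which acetylates H3K9 in SAGA-type complexes, had 89.4, 86.9 and 87.6 CPM in KMT2D KO and 47.4, 46.4 and 41.2 CPM in KMT2D WT. The groups were widely separate (log2 fold change 0.97, SE 0.063, edgeR adjusted p = 3.3e-09). Its paralogue Kat2a (GCN5) had 48.7, 50.6 and 48.4 CPM in KMT2D KO and 52.2, 56 and 49.4 CPM in KMT2D WT and was not called (log2 fold change -0.094, 95% interval -0.23 to 0.043). Kat2a was called lower with library size alone (-0.21, edgeR adjusted p = 0.011) and relative to its chromosome median (-0.17, edgeR adjusted p = 0.031). Crebbp had 85.8, 82.4 and 97.1 CPM in KMT2D KO and 91.1, 105 and 121 CPM in KMT2D WT, overlapping groups with a wide KMT2D WT spread (log2 fold change -0.26, edgeR adjusted p = 0.018). The call of Crebbp was lost without KMT2D WT replicate 2 or 3 or KMT2D KO replicate 1 or 2 (edgeR adjusted p = 0.059 to 0.1), and without KMT2D WT replicate 3 its log2 fold change was -0.15. Ep300 had 69.4, 66.6 and 79.2 CPM in KMT2D KO and 57.8, 72.5 and 83.9 CPM in KMT2D WT (log2 fold change 0.0083, 95% interval -0.22 to 0.23).

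Ratios between related genes within a library do not depend on the scaling between libraries, and 17 pairs were compared. Shifts of whole chromosomes, described below, do enter a ratio whose genes lie on different chromosomes. In 14 of them (82.4%) the groups did not overlap, beside 74.3% of single tested genes, each with an exact two-sided permutation p of 0.1, the smallest that 3 libraries against 3 can give (0.12 after Benjamini-Hochberg adjustment over the 17 pairs). The largest difference was in Kdm4a to Kdm4b, whose log2 ratio of RPKM was 0.23, 0.18 and 0.21 in KMT2D KO and 1.73, 1.72 and 1.83 in KMT2D WT. Kdm4a thus exceeded Kdm4b by a wide margin in KMT2D WT and by a small one in KMT2D KO. The log2 ratio of Phf8 to Phf2 was -0.24, -0.32 and -0.30 in KMT2D KO and -1.68, -1.66 and -1.51 in KMT2D WT. That of Kdm3a to Kdm3b was 1.04, 1.09 and 1.02 in KMT2D KO and -0.12, -0.14 and -0.38 in KMT2D WT, so that Kdm3a was the more abundant of the pair in KMT2D KO and Kdm3b in KMT2D WT. The same exchange of order was seen for Kat2a to Kat2b, at -0.25, -0.15 and -0.23 in KMT2D KO and 0.77, 0.90 and 0.89 in KMT2D WT. Relative to chromosome medians, the log2 fold changes were 0.80 and 0.46 for Kdm3a and Kdm3b and 0.61 and 0.017 for Phf8 and Phf2. The gaps of these pairs were thus narrower. Those of Kdm4a (0.043) and Kdm4b (1.67) and of Kat2a (-0.17) and Kat2b (0.91) were not.

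The ratio of Kdm1a to Kdm1b differed by 0.98 on the log2 scale, and that of Suv39h1 to Suv39h2 by 0.96. Ep300 to Crebbp differed by 0.27 with -0.53, -0.53 and -0.51 in KMT2D KO and -0.88, -0.76 and -0.75 in KMT2D WT, nearly the same value in all KMT2D KO libraries. Relative to chromosome medians, Ep300 had a log2 fold change of -0.027 and Crebbp of 0.18, so the direction of this difference turned. Kdm1a and Kdm1b were then at 0.74 and 0.43, a narrower gap, and Suv39h1 and Suv39h2 at 0.15 and -0.90. Kdm5b to Kdm5c differed by 0.25. Pairs whose groups overlapped were Ezh2 to Ezh1 (difference 0.055, exact permutation p = 0.8), Kdm5a to Kdm5b (-0.054, exact permutation p = 0.6) and Smyd2 to Smyd3 (0.016, exact permutation p = 0.9).

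**Figure D4:**
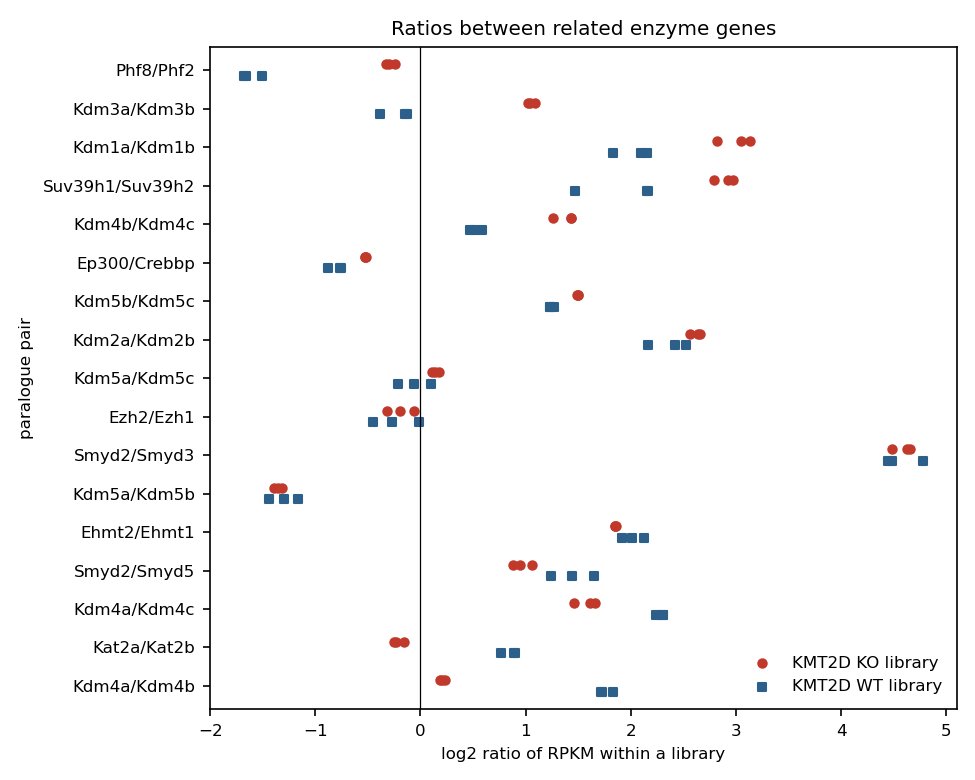
Log2 ratio of RPKM between related genes in each library, with KMT2D KO libraries as red circles above KMT2D WT libraries as blue squares and pairs ordered by the difference between groups. The pairs at the top (Phf8/Phf2, Kdm3a/Kdm3b) and bottom (Kdm4a/Kdm4b, Kat2a/Kat2b) show the widest gaps, and the groups of Ezh2/Ezh1 overlap. Chromosome medians were not subtracted.

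Differences also went with chromosomes. The median log2 fold change of all tested genes was -0.54 on chromosome 13, -0.50 on chromosome 18, -0.44 on chromosome 16 and 0.42 on chromosome 6. Of the 5 members called lower, 4 lie on chromosomes 13 and 16: Nsd1, Jarid2, Phf2 and Crebbp. Relative to its chromosome median, Nsd1 was still lower (-0.25, edgeR adjusted p = 0.00086), while Jarid2, Phf2 and Crebbp (0.18, edgeR adjusted p = 0.086) were not called. Kdm3b on chromosome 18 (0.46, edgeR adjusted p = 9.3e-06) and Kdm1b on chromosome 13 (0.43, edgeR adjusted p = 0.003) lay above their chromosomes. On chromosome 6, Kdm3a (0.80) and Kdm5a (0.41) stayed higher, Smyd5 was not called, and Ezh2 was called lower (-0.27, edgeR adjusted p = 0.031). Kdm4b (1.67), Kat2b (0.91), Kdm5b (0.94) and Kdm1a (0.74) kept most of their difference. Ehmt1 on chromosome 2 (median 0.27) went from 0.70 to 0.42, and Kdm2b on chromosome 5 (median -0.36) from 0.31 to 0.66.

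After this centring 23 members were called higher, 5 lower and 11 not called, with a median of 0.33, and 67.4% of all tested genes were called. Of the 27 members called before, 21 were called in the same direction, 6 were not called (Jarid2, Phf2, Crebbp, Smyd5, Kdm4a and Suv39h1) and 0 were called in the opposite direction. A further 7 members were called only after centring, Setd2, Kdm3b, Kdm1b and Jmjd1c (0.25) higher and Ash2l, Ezh2 and Kat2a lower. Among the demethylases 14 were then higher and 0 lower. Over all 14579 tested genes, 4940 were called higher and 4893 lower after centring.

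**Figure D5:**
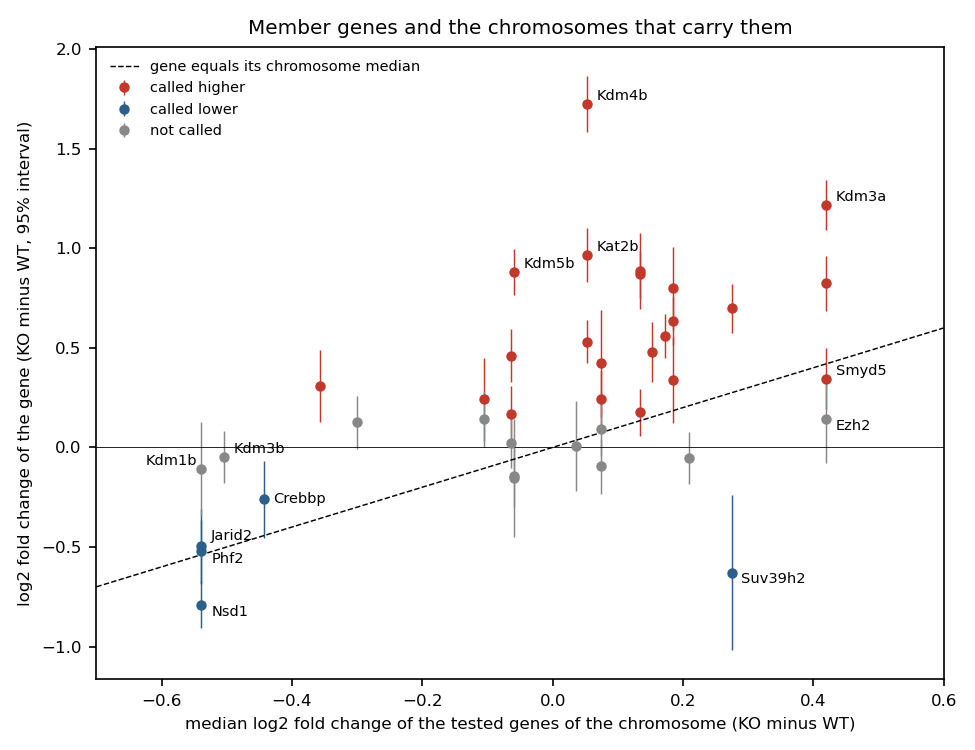
Log2 fold change of each member (KMT2D KO minus KMT2D WT, with 95% interval) against the median of all tested genes on its chromosome, coloured by call, with a dashed line where a gene equals its chromosome median. Jarid2 and Phf2 lie on the line at the left, and Kdm4b, Kdm3a, Kat2b and Kdm5b lie well above it.

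Further genes of the same pathways were read from 9 lists with 90 genes, all of which could be tested. Of the 90, 66 were called (73.3%, beside 71% of all tested genes), 36 higher and 30 lower (40% and 33.3%, beside 35.4% and 35.5% of all tested genes), with a median log2 fold change of 0.089. Relative to chromosome medians, 35 were higher and 29 lower, and named genes whose call then ended are given below. Shares of each list below stand beside the same 35.4% higher and 35.5% lower of all tested genes.

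Of 14 other lysine methyltransferase genes, 5 rose (35.7%), 4 fell (28.6%) and 5 were not called. Smyd1, known from heart and skeletal muscle, averaged 28.2 ± 1.48 CPM in KMT2D KO and 0.0811 ± 0.0773 CPM in KMT2D WT (log2 fold change 8.44, edgeR adjusted p = 4.7e-13), a fitted value that rests on few KMT2D WT counts. Suv420h2, an H4K20 methyltransferase, rose by 0.94. Setd8, which monomethylates H4K20, averaged 62.7 ± 1.67 CPM in KMT2D KO and 234 ± 19.9 CPM in KMT2D WT (-1.90, edgeR adjusted p = 1.5e-12), and Smyd4 had a log2 fold change of -0.60. Of 5 other demethylase genes, Kdm7a (0.90) and Jmjd6 (0.57) rose (40%), Kdm5d and Uty fell as described (40%), and Kdm4d was not called.

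Acetyltransferases, deacetylases and their partners held calls in both directions. Of 7 other acetyltransferase genes, 3 rose (42.9%), 3 fell (42.9%) and 1 was not called. Among the rises were Kat6a (0.28) and Hat1 (0.28), and among the falls Naa60 (-0.67) and Kat8 (-0.28). Relative to chromosome medians 0 of the 7 were higher, with Kat6a at 0.071 (edgeR adjusted p = 0.33) and Hat1 at 0.0037 (edgeR adjusted p = 0.97). Among 16 deacetylase and sirtuin genes there were 8 rises (50%) and 6 falls (37.5%; 2 not called; median log2 fold change 0.23). Hdac11 averaged 23 ± 1.72 CPM in KMT2D KO and 3.66 ± 0.199 CPM in KMT2D WT (log2 fold change 2.65, edgeR adjusted p = 9.7e-12), and Hdac7, a class IIa deacetylase, rose by 1.17. Hdac9 (-0.68) and Hdac3 (-0.56), the catalytic subunit of NCoR complexes, fell. Hdac3 was not called relative to the median of chromosome 18 (-0.053, edgeR adjusted p = 0.53). Of 10 SAGA and ATAC partners of Kat2a and Kat2b, 2 rose (20%), 5 fell (50%) and 3 were not called. The rises were Tada3 (0.42) and Supt20 (0.35), and among the falls were Tada2b (-0.78) and Supt3 (-0.57). Relative to chromosome medians 4 were higher and 3 lower, and Tada3 was not called (-0.0015, edgeR adjusted p = 0.99).

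Polycomb partners were read by complex. Of 6 PRC2 accessory genes, 3 fell (50%, beside 35.5% of all tested genes), 3 were not called and 0 rose, with Aebp2 at -0.41 and Mtf2 at -0.34. Mtf2 was not called relative to its chromosome median (0.015, edgeR adjusted p = 0.88), and 4 of the 6 were then lower. Among 18 PRC1 genes there were 11 rises (61.1%, beside 35.4% of all tested genes) and 4 falls (22.2%, beside 35.5%; 3 not called; median log2 fold change 0.44), and 9 rises and 4 falls relative to chromosome medians. Cbx7, a reader of H3K27 trimethylation, averaged 19.5 ± 0.245 CPM in KMT2D KO and 6.92 ± 1.47 CPM in KMT2D WT (log2 fold change 1.51, edgeR adjusted p = 5.5e-08), and Rybp rose by 1.17. Pcgf3 (-0.69) and Bmi1 (-0.57) fell.

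Of 8 partners of the H3K9 enzymes, 1 rose (12.5%), 2 fell (25%) and 5 were not called. The HP1 genes, whose proteins bind methylated H3K9, did not move together: Cbx3 averaged 79.5 ± 1.83 CPM in KMT2D KO and 37.8 ± 1.18 CPM in KMT2D WT (1.07, edgeR adjusted p = 3.4e-10), a gene with processed copies whose counts are uncertain. Cbx5 averaged 159 ± 6.0 CPM in KMT2D KO and 279 ± 21.6 CPM in KMT2D WT (-0.82, edgeR adjusted p = 1.5e-08), and Cbx1 was not called (0.086). Mphosph8, a subunit of the HUSH complex, fell (-0.43). Of 6 CoREST-type partners of Kdm1a, 4 rose (66.7%), 1 fell (16.7%) and 1 was not called. Phf21a was at 0.64, Rcor2 at 0.42 and Hmg20b at -0.20 (-0.098 relative to its chromosome median, edgeR adjusted p = 0.28).

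Within groups, single libraries stood highest for many members. KMT2D KO replicate 3 was the highest of its group for 23 of the 39 genes and for 38.6% of all tested genes. KMT2D WT replicate 3 was the highest of its group for 21 of the 39 and for 36.2% of all tested genes. The median coefficient of variation of the members was 4.29% in KMT2D KO and 6.36% in KMT2D WT, and the widest within KMT2D WT were Suv39h2, Ep300 and Phf8.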

How the data were processed

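RNA of 6 libraries was sequenced. The authors deposited raw fragment counts for each gene, obtained with featureCounts 1.5.2 from exons of the mm9 gene annotation, per the file headers. Neither strand nor multi-mapping options were set, so fragments of both strands were counted and those with several placements or overlapping several genes were left out by default. The submitters' processing notes also list STAR and HTSeq, without roles. Counts of genes with copies of similar sequence (such as Cbx3, Kdm5c and Kdm5d) are therefore uncertain.

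Group differences in these counts were tested by quasi-likelihood in edgeR 4.0.16 (R 4.3.3, limma 3.58.1) with TMM scaling (factors 0.957 to 0.967 in KMT2D KO and 1.037 to 1.044 in KMT2D WT), filterByExpr and a model with group only, with Benjamini-Hochberg adjustment over 14579 genes. The test was checked on simulated counts in which a small part of the genes changed and no chromosome was shifted. In these data 71% of tested genes were called, so that check cannot vouch for the scaling or the calls here. SE is the log2 fold change divided by the square root of F, and intervals are 95%. Libraries of a group differed by more than sampling noise (chi-square of 11.4 to 25.6 per degree of freedom). Alternatives included DESeq2 1.42.0, voom, other scalings and filters, a replicate block and leaving out each library. Every member is named. Values per library were to be given for called members with an absolute log2 fold change of at least 0.5 and for members of shown pairs or sequences, and were extended to all 39. From each list, up to 2 called rises and 2 called falls with a mean of at least 1 CPM were named. A floxed allele that both groups share is not reported here by name. Members and lists were chosen with earlier results of these data known. The sums over genes and Cbx1, Kdm4d, Ddx3y, Eif2s3y and Xist were chosen after their values were seen.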

Additional observations from a re-analysis of the deposited data

How the results depend on the processing

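Of the 27 member calls, 16 held in the same direction under all 16 alternatives other than glmTreat of edgeR, a test that demands a log2 fold change beyond 1. The other 11 were Suv39h1, Suz12, Jarid2, Ash1l, Dot1l, Smyd5, Kdm2b, Kdm4a, Kdm6b, Phf2 and Crebbp. Leaving out 1 library gave 24 to 30 called members, 19 to 25 higher and 4 or 5 lower, and 11 to 13 demethylases higher, with 9542 to 10798 calls over all genes and 55 to 68 in the pathway lists. With glmTreat, 2823 of all genes were called, 1479 higher and 1344 lower. Under the same test 2 members were called, 2 higher and 0 lower, both demethylases (2 called higher), with 0 methyltransferase genes higher and 8 genes of the pathway lists. Scaling by library size alone shifted the median of all genes by -0.11 and gave 16 higher and 9 lower members, with 5 methyltransferase or subunit genes higher, and 10 demethylases higher. Over all genes 42.4% of calls were then higher, compared with 49.9% under TMM.

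Centring on chromosome medians left 1 member with a call and an absolute log2 fold change above 1 (Kdm4b). Direction turned in these members called in either fit: Ezh2 (-0.27), Jarid2 (0.043), Smyd5 (-0.075), Kdm1b (0.43), Kdm3b (0.46), Phf2 (0.017) and Crebbp (0.18). Ep300, called in neither fit, turned from 0.0083 to -0.027. These turns follow from subtracting the chromosome median. Libraries with the same replicate number deviated together weakly at most (correlations 0.0057, 0.10 and 0.075), though 4 of 6 libraries matched best to their own number. Whether the numbers mark pairs is thus not settled, and they were not taken as pairs in the main fit. With the replicate block, 30 members were called, 24 higher and 6 lower. Other causes were not tested. Precision is limited by 3 libraries a group. Intervals cover the spread between these libraries, and depth was not limiting for the members, the lowest of which had 1418 counts over the 6 libraries.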
